A study of Mus musculus with 24 samples.

Results

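The action of doxorubicin on the heart of mice that also received hesperitin was read from heart RNA 16 h after treatment. The labels abbreviate the groups as DOXH for both compounds, H for hesperitin alone, DOX for doxorubicin alone and V for vehicle. The comparison took the 3 DOXH libraries against the 3 H libraries of the 16 h table, 6 of the 24 samples of the series, over all 10393 genes of that table. DOXH mice had doxorubicin at 25 mg/kg and hesperitin at 10 mg/kg per day, H mice had hesperitin at 10 mg/kg per day, DOX mice had doxorubicin at 25 mg/kg, and V mice had neither drug. All were wild type, and the labels assign 1 batch to all. The labels give no strain, age or number of animals per sample. The p-values therefore measure only the spread among these libraries, which may be technical. The 3 DOX and 3 V libraries entered the same fit, and their change is set beside that of DOXH against H. A ± after a log2 fold change is its SE.

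Doxorubicin is an anthracycline that inserts between DNA bases and traps topoisomerase II on DNA, which leaves strand breaks. Breaks stabilise the transcription factor p53, whose targets halt the cell cycle (Cdkn1a), limit p53 itself (Mdm2) or lead to cell death (Bax). The drug is also known for binding iron and cardiolipin in mitochondria, and its use is limited by injury to heart muscle. Hesperitin, usually spelled hesperetin, is a flavanone of citrus fruit, and the series title names CISD2, an iron-sulphur protein of the endoplasmic reticulum and mitochondria-associated membranes.

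The 6 libraries did not fall into 2 tight groups, and this bears on every value that follows. Levels are given as CPM, counts scaled to library size. On the first principal component of log2 CPM, which carried 60.8% of the variance, the DOXH libraries lay at -8.28, -35.09 and 17.68. The H libraries lay at 16.4, 27.33 and 27. DOXH replicate 3 thus lay among the H and V libraries (V at 18.04 to 20.75), and DOXH replicate 2 among the DOX libraries (-42.16 to -29.4). Over the 3352 genes called in DOX against V, the change of each DOXH library from the mean of H had a slope of 0.51, 0.86 and 0.05 on the change of DOX against V, for replicates 1, 2 and 3. In each H library, taken against the mean of the other H libraries, that slope was 0.08, -0.07 and -0.01. By slope DOXH replicate 3 thus lay within the range of H. Of the 2298 genes called without it, it lay beyond the H range in the direction of the call in 1074 (46.7%). In 306 (13.3%) it lay beyond that range in the opposite direction, and in 918 (39.9%) within it. The same H libraries picked these genes, which favours the direction of the call. Whether the heart of DOXH replicate 3 was dosed as labelled, or another sample carries its label, was not tested, and every DOXH mean and count depends on it. The label was kept. Results are given with and without that library, a choice made after its values had been seen. H replicate 1 stood apart in another way: markers of neutrophils summed to 175 CPM there, against 13.4 and 13.2 CPM in the other H hearts. Depth was 9255651 to 10502391 counts per library in DOXH and 17664060 to 19869050 in H, so the H group is also the deeper one. DOX (10285599 to 10591384) and V (10337722 to 11074450) were close to DOXH in depth. Cardiomyocyte markers were abundant in every library, as the heart label requires: 15 of them summed to 50457, 46571 and 68435 CPM in DOXH hearts and 66700.1, 73279.6 and 72492 CPM in H hearts.

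**Figure D1:**
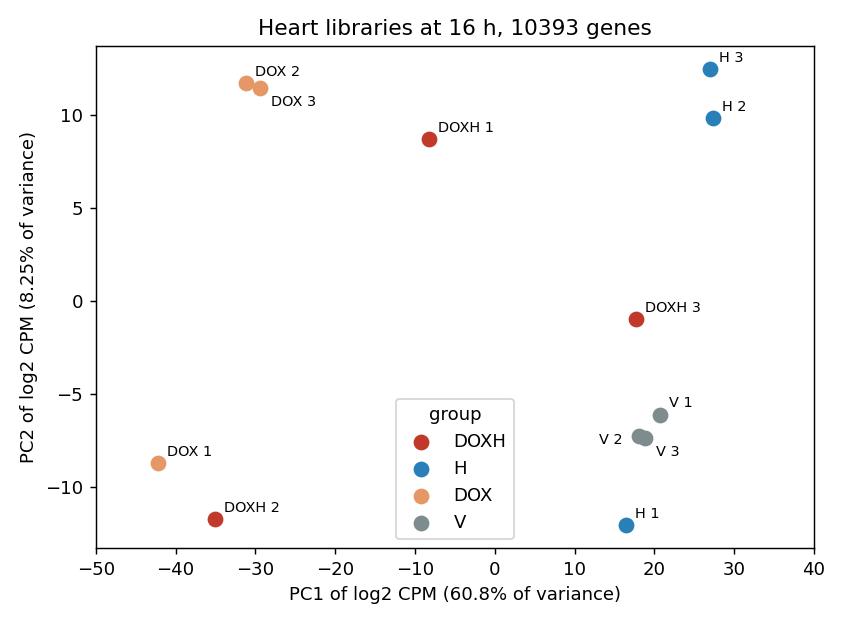
Each point is 1 library at its place on the first (horizontal) and second (vertical) principal components of log2 CPM over 10393 genes, coloured by group. DOXH 2 lies near the DOX libraries at -35.09, DOXH 1 at -8.28, and DOXH 3 at 17.68 near the H and V libraries.

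In the fit of all 12 libraries at 16 h, 16 of 10393 genes passed an adjusted p of 0.05 in DOXH against H (0.154%, edgeR's quasi-likelihood test with Benjamini-Hochberg adjustment). Of these, 12 were higher (0.115%) and 4 lower (0.0385%) in DOXH than in H. Another 94 genes had an adjusted p between 0.05 and 0.06, and 2558 (24.6%) an unadjusted p under 0.05, of which 1318 (12.7%) were higher and 1240 (11.9%) lower. When DOXH replicate 3 was left out, 2298 genes passed (22.1%), 1081 of them higher (10.4%) and 1217 lower (11.7%), and the 16 genes were among them. DESeq2 called 718 genes (6.91%), 386 higher (3.72%) and 332 lower (3.2%), and leaving out H replicate 1 in edgeR gave 192; both sets held the 16. Limma's voom with sample quality weights, an alternative added after the data were seen, called 2157 (20.8%), 1014 of them higher (9.76%). That fit weighted DOXH replicates 1, 2 and 3 at 2.82, 0.316 and 0.352, and the H replicates at 0.453, 0.786 and 1.22. Its DOXH values thus rest mostly on replicate 1. Leaving out H replicate 2, H replicate 3 or V replicate 1 left none of the 16 past the threshold. In all 16 no DOXH library overlapped an H library, as in 2187 of all genes (21.0%), 1066 of them higher (10.3%) and 1121 lower (10.8%).

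The largest rise among the 16 was in Cldn5, the claudin that seals tight junctions between endothelial cells (chr16:18776847-18778262, plus strand, GRCm38). Its level was 58.7, 91.5 and 23.3 CPM in DOXH hearts, against 6.29, 8.35 and 6.96 in H hearts (log2 fold change 3.01 ± 0.38, adjusted p = 0.0221). All 3 DOXH hearts were above all H hearts, with replicate 3 the nearest to H. In a bulk sample, more cells of a type and more RNA per cell cannot be told apart. The other endothelial genes did not move alike. Beside a list median stand its lowest and highest values when 1 DOXH or H library was left out, with that library. Endothelial markers had 7 of 24 members higher and 3 lower at an unadjusted p under 0.05 (median log2 fold change 0.12, 0.06 without DOXH 1 to 0.18 without H 2). DESeq2 called 6 higher and 2 lower, and edgeR without DOXH replicate 3 called 7 higher and 3 lower (median 0.12). Their summed level was 2175, 2444 and 1922 CPM in DOXH hearts and 1939, 1807 and 1810.5 CPM in H hearts. Podxl, an anion-rich surface protein of endothelium, was measured at 93.9, 103 and 108 CPM in DOXH hearts, against 144, 172 and 141 in H hearts (log2 fold change -0.58 ± 0.10, adjusted p = 0.051), on the other side of H from Cldn5.

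Fosl2, Sik1 and Rgs2 also rose. Fosl2, a subunit of the AP-1 factor (chr5:32135801-32157842, plus strand), stood at 106, 159 and 58.4 CPM in DOXH hearts, against 31.6, 20.5 and 17.9 in H hearts (log2 fold change 2.21 ± 0.35, adjusted p = 0.0442). Sik1, a salt-inducible kinase that restrains CREB coactivators (chr17:31844250-31855804, minus strand), stood at 129.5, 138 and 103 CPM in DOXH hearts, against 53.3, 23.8 and 20.7 in H hearts (log2 fold change 1.92 ± 0.31, adjusted p = 0.0442). Rgs2, which shortens signalling of Gq-coupled receptors (chr1:143999338-144004161, minus strand), had 48.1, 76.7 and 72.6 CPM in DOXH hearts, against 32.4, 20.7 and 25.7 in H hearts (log2 fold change 1.32 ± 0.21, adjusted p = 0.0442). In Fosl2 the DOXH heart of replicate 3 was again the lowest of its group, whereas in Rgs2 replicate 1 was the lowest and replicates 2 and 3 were close to each other.

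The circadian clock gave a rise and a fall. Arntl encodes BMAL1, which pairs with CLOCK on E-box elements to drive the rhythm, and Ciart encodes a repressor of that pair. Arntl (chr7:113207465-113314126, plus strand) was at 6.98, 14.2 and 9.13 CPM in DOXH hearts, against 3.37, 3.21 and 3.48 in H hearts (log2 fold change 1.59 ± 0.26, adjusted p = 0.0442). Ciart (chr3:95878503-95882251, minus strand) was at 2.97, 1.82 and 5.602 CPM in DOXH hearts, against 11.7, 10.9 and 11.7 in H hearts (log2 fold change -1.72 ± 0.28, adjusted p = 0.0442). Neither gene overlapped between the groups, and both passed in the same direction in DOX against V. There Arntl was at 15.95, 11.9 and 12.6 CPM in DOX hearts, against 4.34, 2.27 and 3.14 in V hearts. Ciart was at 2.37, 1.402 and 1.73 CPM in DOX hearts, against 13.2, 12.96 and 13.2 in V hearts. The clock list had 4 of 18 members higher and 10 lower at an unadjusted p under 0.05 (median log2 fold change -0.36, -0.42 without DOXH 1 to -0.29 without H 1). The fit without DOXH replicate 3 called 4 higher and 8 lower (median -0.33), and DESeq2 on all libraries called 3 higher and 5 lower. Clock itself was measured at 59.2, 79.05 and 59.6 CPM in DOXH hearts, against 43.99, 46.4 and 43.1 in H hearts (log2 fold change 0.57 ± 0.11, adjusted p = 0.0543). Dbp, an output gene with a strong daily rhythm, was at 24.8, 4.18 and 50.7 CPM in DOXH hearts, against 67.3, 111 and 108 in H hearts (log2 fold change -1.84 ± 0.58, adjusted p = 0.109). Per3, a repressor of the clock, was at 20.5, 7.18 and 27.2 CPM in DOXH hearts, against 29.9, 39.5 and 47.8 in H hearts (log2 fold change -1.09 ± 0.35, adjusted p = 0.11). Without DOXH replicate 3 Dbp passed lower (log2 fold change -2.70 ± 0.58, adjusted p = 0.0141), as did Per3 (log2 fold change -1.48 ± 0.36, adjusted p = 0.0194). The labels give no clock hour of tissue collection, so a difference in hour between groups cannot be told apart from the treatment.

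The Ciart promoter is shown because it holds the element through which the Arntl product is known to act. In the 300 bases from 250 before to 50 after the RefSeq start of the gene (GRCm38.p6, chr3:95882179-95882478, minus strand), the E-box CACGTG occurred 3 times, in capitals.
Ciart promoter: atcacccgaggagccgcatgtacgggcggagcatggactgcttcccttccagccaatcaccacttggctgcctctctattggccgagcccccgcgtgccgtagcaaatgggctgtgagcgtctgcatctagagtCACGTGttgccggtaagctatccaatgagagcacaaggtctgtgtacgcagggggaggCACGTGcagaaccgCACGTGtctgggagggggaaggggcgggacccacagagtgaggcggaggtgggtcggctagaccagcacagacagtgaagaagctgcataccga
CACGTG, which reads the same on both strands, was in 5 of the 15 clock genes with a RefSeq promoter (33.3%) and in 2187 of all 27025 promoters of this length (8.09%). The D-box TTATGTAA, searched on both strands, was in 1 of the 15 (6.67%) and in 299 of all (1.11%). A match is a run of letters and not a measured binding site.

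In some of the 16 genes it was the H hearts that stood apart from the other 3 groups. Shank3, a scaffold protein (chr15:89499623-89560261, plus strand), was at 75.1, 75.5 and 72.8 CPM in DOXH hearts, against 51.5, 48.1 and 50.6 in H hearts (log2 fold change 0.57 ± 0.07, adjusted p = 0.0174), beside 73.3, 65.6 and 68.3 CPM in DOX hearts, against 75.1, 69.4 and 72.8 in V hearts. The DOXH, DOX and V hearts overlapped in range, and the H hearts were below them. Mbd1, which binds methylated CpG (chromosome 18), was at 69.4, 80.7 and 75.8 CPM in DOXH hearts, against 47.1, 29.6 and 30.6 in H hearts (log2 fold change 1.07 ± 0.17, adjusted p = 0.0442), beside 82.6, 78.6 and 65.8 CPM in DOX hearts, against 77.4, 64.3 and 76.4 in V hearts. In 10 of the 16 genes the 3 H libraries lay beyond all V libraries on the side away from DOXH, and in 4 of these 10 (Mbd1, mt-Nd3, Rgs2 and Shank3) the DOXH libraries overlapped the V libraries. The 16 were picked for a difference between DOXH and H, which itself favours H libraries far from DOXH. Over all genes, not picked so, the H and V libraries did not overlap in 15.6%, counting either direction. These shares are not alike, and no conclusion is drawn from them. H libraries are also the deeper ones, so depth and hesperitin alone cannot be told apart in the genes where H stood apart. With every library thinned to the smallest total 15 genes passed, 13 of them from the 16.

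The 4 genes that fell were Ciart and 3 of other roles. Cd200, a surface protein that quiets macrophages carrying its receptor (chr16:45382135-45409053, minus strand), was at 21.2, 12.5 and 22.1 CPM in DOXH hearts, against 44.9, 49.03 and 50.1 in H hearts (log2 fold change -1.36 ± 0.16, adjusted p = 0.0174), the smallest p of the comparison with that of Shank3. It is beside 23.1, 24.98 and 25.8 CPM in DOX hearts, against 28.8, 33.7 and 32.9 in V hearts. Ddit3, the CHOP factor of the endoplasmic reticulum stress response (chr10:127290774-127296288, plus strand), was at 6.41, 5.14 and 5.81 CPM in DOXH hearts, against 9.71, 10.7 and 12.96 in H hearts (log2 fold change -0.94 ± 0.15, adjusted p = 0.0442). It overlaps 3 annotated genes, Mars, Gm4189 and a second entry named Ddit3, of which 2 lie on the other strand. Arntl, Bcl9l, Ciart and Shank3 also overlap an annotated gene on the other strand, and Tbc1d4 overlaps Gm34417 on its own strand. Whether the counting used strand is not stated, so reads of such partners cannot be told apart. Rasl11b, a Ras-like small GTPase (chr5:74195286-74199481, plus strand), was at 11.5, 10.5 and 8.09 CPM in DOXH hearts, against 18.3, 26.6 and 23.7 in H hearts (log2 fold change -1.19 ± 0.20, adjusted p = 0.0442). In all 4 genes the highest DOXH heart was below the lowest H heart.

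Tbc1d4 encodes AS160, which holds the glucose transporter GLUT4 inside the cell until insulin acts (chr14:101442360-101609191, minus strand), and it was at 140.2, 118 and 112 CPM in DOXH hearts, against 64.5, 86.6 and 74.8 in H hearts (log2 fold change 0.71 ± 0.12, adjusted p = 0.0442). Ptpru, a receptor tyrosine phosphatase (chr4:131768457-131838288, minus strand), was at 5.26, 6.53 and 5.29 CPM in DOXH hearts, against 2.48, 2.97 and 2.998 in H hearts (log2 fold change 1.01 ± 0.15, adjusted p = 0.0355). Bcl9l, a cofactor of beta-catenin (chr9:44482825-44511896, plus strand), was at 45.6, 42.95 and 37.9 CPM in DOXH hearts, against 26.4, 30.8 and 28.9 in H hearts (log2 fold change 0.55 ± 0.09, adjusted p = 0.0442). These 3 also rose in DOX against V, by log2 fold changes of 0.64, 0.99 and 0.49 for Tbc1d4, Ptpru and Bcl9l.

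From the mitochondrial genome, the large ribosomal RNA mt-Rnr2 was at 11403, 12172 and 9220.4 CPM in DOXH hearts, against 6422, 6491 and 5158 in H hearts (log2 fold change 0.86 ± 0.12, adjusted p = 0.0355). mt-Nd3, a subunit of complex I, was at 6319.9, 7049.9 and 6183 CPM in DOXH hearts, against 4729, 3743 and 3412 in H hearts (log2 fold change 0.72 ± 0.11, adjusted p = 0.0442). In DOX against V mt-Nd3 went the other way, with 4744, 4901 and 4183 CPM in DOX hearts, against 6379, 6185 and 5746 in V hearts (log2 fold change -0.41 ± 0.11, adjusted p = 0.0205). mt-Co3, a subunit of complex IV, was also higher in DOXH than in H (log2 fold change 0.62 ± 0.13, adjusted p = 0.0579). In DOX against V mt-Co3 was lower (log2 fold change -0.40 ± 0.13, adjusted p = 0.0344). The ribosomal RNA mt-Rnr1 had a log2 fold change of 0.55 ± 0.11 in DOXH against H (adjusted p = 0.0543). As a list the mitochondrial messages did not move as a block. Mitochondrial messages had 2 of 13 members higher and 1 lower at an unadjusted p under 0.05 (median log2 fold change 0.01, -0.11 without H 1 to 0.09 without DOXH 2). With DOXH replicate 3 left out 2 higher and 1 lower were called (median 0.01), against 2 higher and 1 lower by DESeq2 with it. Their summed level was 389136, 378962 and 392156 CPM in DOXH hearts and 328257, 411419 and 413544 CPM in H hearts. Near-identical nuclear copies of mitochondrial genes can take such reads, so all these genes are uncertain. Ribosomal RNA in a poly(A)-selected library also depends on how complete the selection was.

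**Figure D2:**
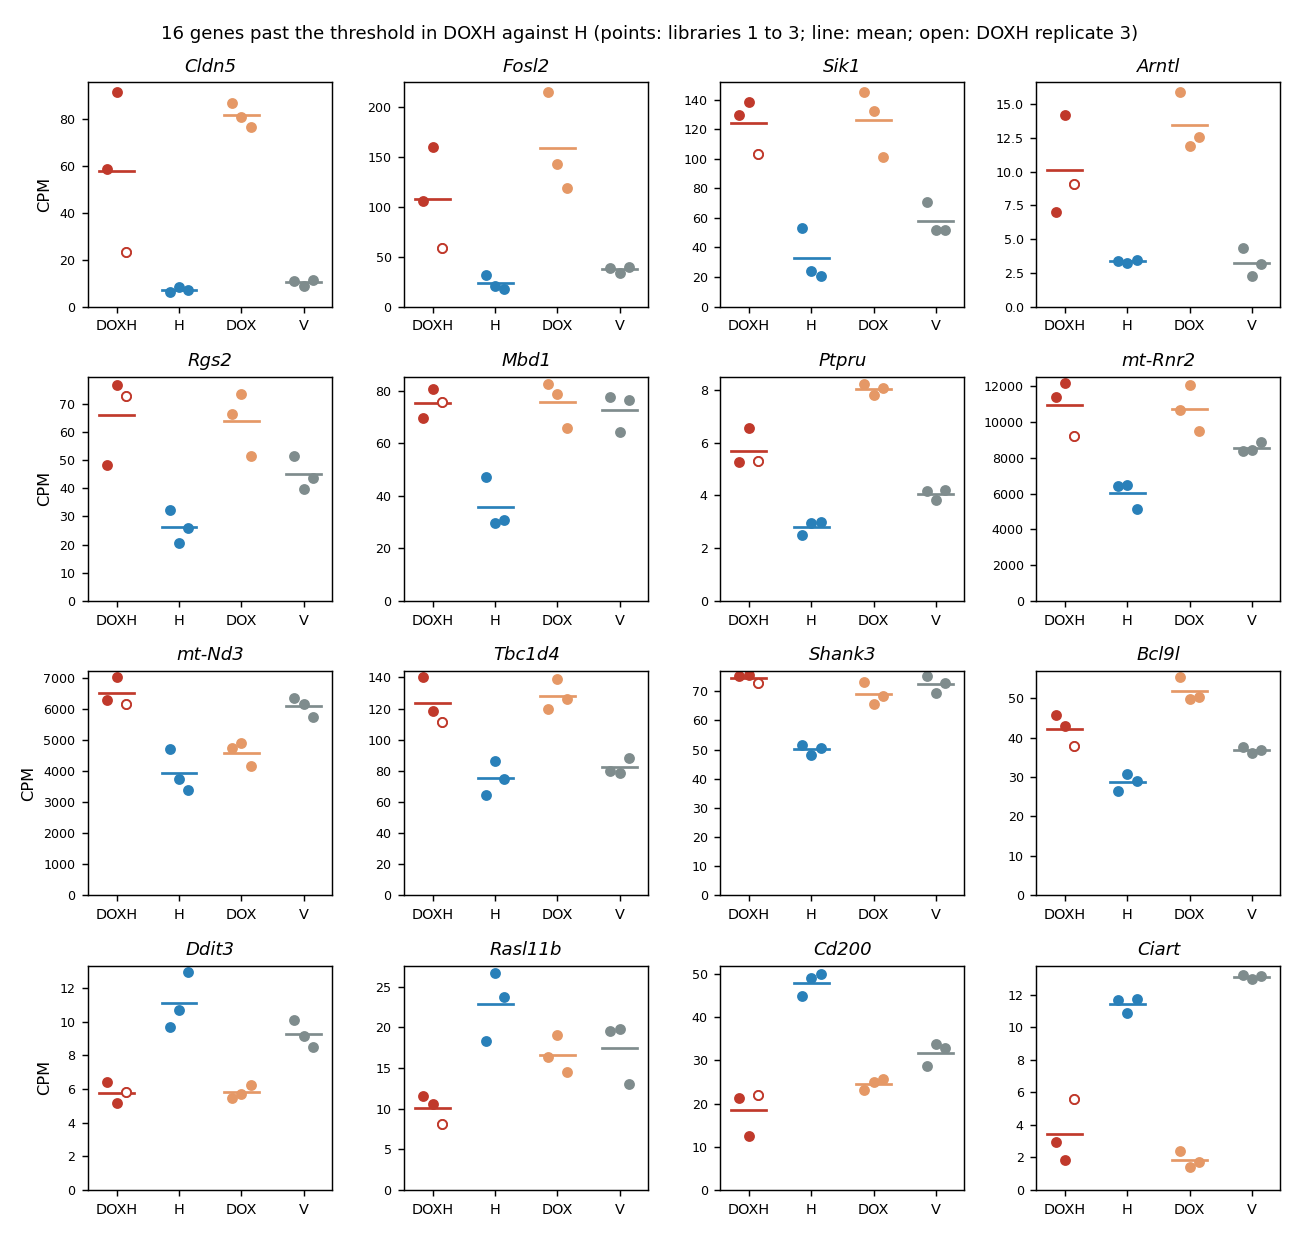
Each panel gives 1 of the 16 genes past the threshold, as CPM (vertical, from 0) in the 3 libraries of DOXH, H, DOX and V, with the mean as a line and DOXH replicate 3 as an open point. In each panel the DOXH points do not overlap the H points, and in Shank3 and Mbd1 the H points lie below those of the other 3 groups.

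Targets of p53, the pathway that doxorubicin is best known to set off, separated the DOXH hearts from each other. None of the 31 tested passed in edgeR with all libraries. The list had 21 of 31 members higher and 0 lower at an unadjusted p under 0.05 (median log2 fold change 0.95, 0.61 without DOXH 2 to 1.27 without DOXH 3). The adjusted calls were 23 higher and 0 lower without DOXH replicate 3 (median 1.27) and 15 higher and 0 lower in DESeq2. In DOX against V 22 were higher and none lower past the threshold (15.6% and 16.6% of all genes; list median 1.40). Relative to the mean of H, the list's median log2 level was 1.06, 1.44 and -0.04 in DOXH replicates 1, 2 and 3, and 0.05, -0.10 and -0.02 in H.

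Eda2r, a receptor on the p53 list, shows the split. Its level was 45.3, 85.2 and 3.63 CPM in DOXH hearts, against 2.704, 3.45 and 3.37 in H hearts (log2 fold change 3.81 ± 0.79, adjusted p = 0.0596), so that replicates 1 and 2 were far above H and replicate 3 was at the level of H. Cdkn1a, the p21 inhibitor of the cell cycle, was at 151, 327 and 53.2 CPM in DOXH hearts, against 39.8, 7.38 and 6.75 in H hearts (log2 fold change 3.30 ± 0.76, adjusted p = 0.0653). Here replicate 3 was above all H hearts, of which replicate 1 was the highest. Mdm2, the ubiquitin ligase that degrades p53, had 88.96, 138 and 44.9 CPM in DOXH hearts, against 47.6, 43.7 and 49.4 in H hearts (log2 fold change 0.95 ± 0.28, adjusted p = 0.097). Bax, a pore-forming death protein, had 23.7, 34.1 and 8.404 CPM in DOXH hearts, against 12.2, 8.11 and 9.74 in H hearts (log2 fold change 1.14 ± 0.36, adjusted p = 0.11). In both genes replicate 3 lay inside the range of H. Trp53inp1, a p53-induced nuclear protein, was at 135, 378 and 47.8 CPM in DOXH hearts, against 39.9, 21.4 and 22.3 in H hearts (log2 fold change 2.74 ± 0.63, adjusted p = 0.0624). Sesn2, a stress-induced sestrin, was at 10.1, 20.6 and 3.01 CPM in DOXH hearts, against 2.59, 1.94 and 2.57 in H hearts (log2 fold change 2.23 ± 0.52, adjusted p = 0.0624). Without replicate 3 each of the 6 passed, with log2 fold changes from 1.27 for Mdm2 to 4.36 for Eda2r. Klhdc7a, a kelch-domain gene, had the same pattern with 65.4, 91.7 and 6.95 CPM in DOXH hearts, against 4.42, 6.9 and 7.71 in H hearts (without replicate 3: log2 fold change 3.63 ± 0.19, adjusted p = 6.71e-06).

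Interferon-stimulated genes, which restrict viruses and are switched on by interferons, showed the same split at lower amplitude. None of 29 passed in edgeR. This list had 17 of 29 members higher and 0 lower at an unadjusted p under 0.05 (median log2 fold change 0.58, 0.37 without DOXH 1 to 0.84 without DOXH 3). Past the adjusted threshold were 20 higher and 0 lower without DOXH replicate 3 (median 0.84), and 7 higher and 0 lower in DESeq2. Their median relative to the mean of H was 0.89, 0.74 and -0.21 in the DOXH replicates, against -0.02, 0.00 and -0.01 in H. Ifit1, which binds foreign RNA caps, was at 17.2, 16.5 and 3.42 CPM in DOXH hearts, against 4.91, 3.09 and 4.71 in H hearts (log2 fold change 1.54 ± 0.44, adjusted p = 0.0894). Ifit3, its partner, was at 17.2, 18.4 and 5.71 CPM in DOXH hearts, against 6.13, 7.26 and 7.82 in H hearts (log2 fold change 0.96 ± 0.35, adjusted p = 0.135), with replicates 1 and 2 above every H heart and replicate 3 below every H heart. Tap1, the peptide transporter of antigen presentation and also on the p53 list, was at 19.5, 18.7 and 7.05 CPM in DOXH hearts, against 6.79, 7.57 and 7.66 in H hearts (without replicate 3: log2 fold change 1.38 ± 0.15, adjusted p = 0.000317). Interferon-induced GTPases had 4 of 15 members higher and 0 lower at an unadjusted p under 0.05 (median log2 fold change 0.28, -0.14 without DOXH 1 to 0.50 without DOXH 3). Leaving out DOXH replicate 3 gave 6 higher and 0 lower past the threshold (median 0.50), and DESeq2 gave 2 higher and 0 lower. The sign of that median turned without DOXH replicate 1. Relative to the mean of H it was 0.85, 0.02 and -0.43 in DOXH, against -0.01, 0.00 and 0.02 in H, so that DOXH replicate 2 was at the level of H, unlike in the interferon-stimulated list. Igtp, an immunity GTPase, was at 26.9, 29.03 and 10.3 CPM in DOXH hearts, against 12.4, 11.9 and 11.1 in H hearts. Iigp1, another of them, was at 84.1, 125 and 53.4 CPM in DOXH hearts, against 32.4, 46.0 and 43.2 in H hearts (log2 fold change 1.11 ± 0.25, adjusted p = 0.0624).

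The Ifit3 promoter is printed as an example of the element by which this family is known to be switched on. The interferon-stimulated response element, taken as GAAA, any 2 bases and GAAA again and searched on both strands, occurred at 2 places in the window of 250 bases before to 50 after the RefSeq start (GRCm38.p6, chr19:34583279-34583578, plus strand). Both matches lie on the other strand and are in capitals.
Ifit3 promoter: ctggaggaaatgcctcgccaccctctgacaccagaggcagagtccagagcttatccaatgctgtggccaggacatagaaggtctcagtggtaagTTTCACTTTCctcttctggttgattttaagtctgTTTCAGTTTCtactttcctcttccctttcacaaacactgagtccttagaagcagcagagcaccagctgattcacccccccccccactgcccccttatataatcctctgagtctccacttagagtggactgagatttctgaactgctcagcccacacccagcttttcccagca
The element was found in 11 of the 22 members with a RefSeq promoter (50%) and in 1079 of 27025 promoters (3.99%). As a match of letters it says nothing of binding.

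**Figure D3:**
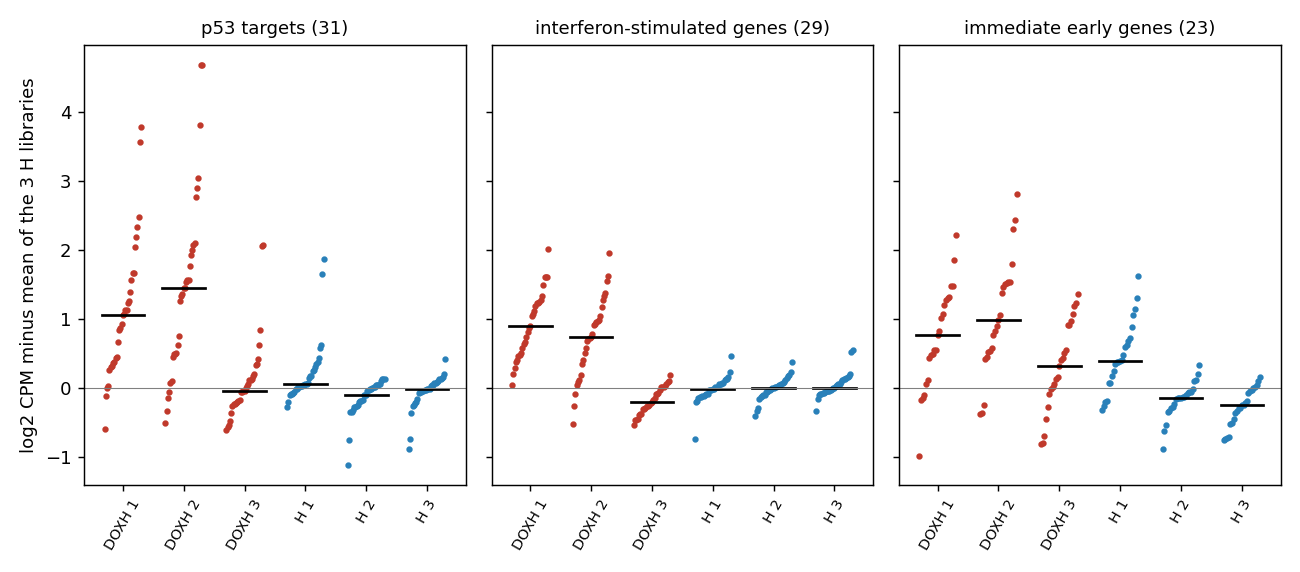
Each point is a gene, placed by its log2 CPM minus the mean of the 3 H libraries (vertical), in each DOXH and H library (horizontal), with the median as a bar, for 31 p53 targets, 29 interferon-stimulated genes and 23 immediate early genes. DOXH 3 has a median near 0 for p53 targets (-0.04) and interferon genes (-0.21), against 1.06 and 0.89 in DOXH 1 and 1.44 and 0.74 in DOXH 2, and its immediate early genes are at 0.31, near the V hearts (0.23 to 0.30).

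Of the immediate early genes, Fosl2 alone passed in edgeR with all libraries. The 23 genes together had 13 of 23 members higher and 0 lower at an unadjusted p under 0.05 (median log2 fold change 0.75, 0.46 without DOXH 2 to 0.95 without H 1). DESeq2 called 8 higher and 0 lower, and edgeR without DOXH replicate 3 called 8 higher and 0 lower (median 0.70). The median of the list relative to the H mean was 0.77, 0.98 and 0.31 in DOXH and 0.39, -0.14 and -0.25 in H, beside 1.43, 1.33 and 0.82 in DOX and 0.30, 0.23 and 0.23 in V. DOXH replicate 3 was thus at about the level of the V hearts and below H replicate 1. Klf2, a flow-induced endothelial factor, was at 83.8, 88.4 and 71.4 CPM in DOXH hearts, against 52.4, 27.0 and 27.8 in H hearts (log2 fold change 1.18 ± 0.22, adjusted p = 0.0543). Klf4, a related factor, was at 78.7, 94.8 and 61.3 CPM in DOXH hearts, against 53.8, 25.7 and 25.3 in H hearts (log2 fold change 1.16 ± 0.26, adjusted p = 0.0624). Nr4a1, an orphan nuclear receptor, was at 94.6, 46.3 and 37.9 CPM in DOXH hearts, against 21.6, 27.96 and 28.96 in H hearts (log2 fold change 1.19 ± 0.34, adjusted p = 0.0885). These 3 did not overlap between the groups. On the list 9 of 23 genes lay higher without overlap, against 10.3% of all genes. Fos, the first AP-1 gene, was at 9.76, 15.3 and 5.08 CPM in DOXH hearts, against 4.69, 6.295 and 5.46 in H hearts, a range that overlapped that of H.

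Genes that answer to glucocorticoids and fasting had a median above the mean of H in all 3 DOXH hearts. Relative to that mean it was 0.53, 1.29 and 0.50 in DOXH, against 0.16, -0.10 and -0.19 in H, beside 1.58, 0.93 and 0.64 in DOX and 0.28, 0.27 and 0.45 in V. The V hearts were also above the mean of H, the highest of them close to DOXH replicates 1 and 3. None of the 28 passed in edgeR. The list had 17 of 28 members higher and 1 lower at an unadjusted p under 0.05 (median log2 fold change 0.88, 0.49 without DOXH 2 to 1.28 without H 1). The fit without DOXH replicate 3 called 7 higher and 2 lower (median 1.09), and DESeq2 on all libraries called 5 higher and 0 lower. Pdk4, the kinase that turns off pyruvate dehydrogenase when fat is burned, was at 578, 1966 and 1076 CPM in DOXH hearts, against 259, 115 and 107 in H hearts (log2 fold change 2.91 ± 0.71, adjusted p = 0.0702), and its V hearts spanned 185 to 863 CPM. Per1, a clock gene that glucocorticoids induce, was at 90.1, 97.4 and 82.2 CPM in DOXH hearts, against 58.6, 37.3 and 33.2 in H hearts (log2 fold change 1.06 ± 0.20, adjusted p = 0.0543). Ucp3, a mitochondrial carrier induced by fatty acids, was at 37.02, 67.9 and 79.8 CPM in DOXH hearts, against 15.6, 21.9 and 26.2 in H hearts (log2 fold change 1.53 ± 0.45, adjusted p = 0.0943), with DOXH replicate 3 the highest. Fbxo32, the atrogin ubiquitin ligase, was at 266, 249 and 229 CPM in DOXH hearts, against 148, 173 and 146 in H hearts (log2 fold change 0.67 ± 0.17, adjusted p = 0.0699). Cebpb and Cebpd, factors of the acute phase, overlapped between the groups. Cebpb was at 83.99, 74.3 and 64.8 CPM in DOXH hearts, against 67.4, 21.4 and 23.02 in H hearts. Cebpd was at 28.7, 47.5 and 20.2 CPM in DOXH hearts, against 23.3, 5.99 and 5.51 in H hearts, and in both H replicate 1 exceeded DOXH replicate 3. Fkbp5 and Tsc22d3, known targets of glucocorticoids, overlapped as well. Fkbp5 was at 26.7, 106.7 and 41.7 CPM in DOXH hearts, against 62.4, 23.7 and 20.3 in H hearts (log2 fold change 0.71 ± 0.59, adjusted p = 0.475). Tsc22d3 was at 148, 134 and 145 CPM in DOXH hearts, against 157, 51.2 and 59.7 in H hearts (log2 fold change 0.67 ± 0.32, adjusted p = 0.22). Whether mice ate less after the drug is not stated.

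None of the inflammatory and acute-phase genes passed in edgeR with all libraries. These genes had 12 of 18 members higher and 0 lower at an unadjusted p under 0.05 (median log2 fold change 0.73, 0.42 without DOXH 2 to 1.08 without H 1). With DOXH replicate 3 left out 5 higher and 0 lower were called (median 0.91), against 1 higher and 0 lower by DESeq2 with it. Osmr, a receptor of oncostatin M, was at 37.9, 65.7 and 22.3 CPM in DOXH hearts, against 21.1, 16.6 and 15.04 in H hearts (without replicate 3: log2 fold change 1.55 ± 0.31, adjusted p = 0.0091). Neutrophil markers were uneven in H: 9 of 14 listed were tested and they summed to 166, 170.4 and 66.8 CPM in DOXH hearts and 175, 13.4 and 13.2 CPM in H hearts. S100a8, a subunit of the calprotectin complex, was at 40.7, 42.1 and 15.4 CPM in DOXH hearts, against 47.9, 2.54 and 2.302 in H hearts. The neutrophil CPM of H replicate 1 were thus at least as high as those of DOXH replicates 1 and 2. The part of these cells in the inflammatory and early genes was not tested. Macrophage and monocyte markers (14 tested) summed to 443, 417 and 454 CPM in DOXH hearts and 435, 344 and 333 CPM in H hearts. That list had 5 of 14 members higher and 0 lower at an unadjusted p under 0.05 (median log2 fold change 0.28, 0.16 without H 3 to 0.35 without DOXH 2). The adjusted calls were 2 higher and 0 lower without DOXH replicate 3 (median 0.19) and 1 higher and 0 lower in DESeq2. Neutrophil markers had 1 of 9 members higher and 0 lower at an unadjusted p under 0.05 (median log2 fold change 0.89, 0.48 without H 3 to 4.16 without H 1). Past the adjusted threshold were 0 higher and 0 lower without DOXH replicate 3 (median 1.23), and 0 higher and 0 lower in DESeq2. Voom with quality weights called 8 of the 9 higher, against 9.76% of all genes. That fit gave H replicate 1, the H library rich in these markers, the lowest weight of the H libraries (0.453).

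Sarcomere genes summed to a lower level in DOXH replicates 1 and 2 than in any H heart. No sarcomere gene passed in edgeR with all libraries. The sarcomere list had 0 of 33 members higher and 14 lower at an unadjusted p under 0.05 (median log2 fold change -0.40, -0.43 without DOXH 3 to -0.23 without DOXH 2). Leaving out DOXH replicate 3 gave 0 higher and 16 lower past the threshold (median -0.43), and DESeq2 gave 0 higher and 8 lower. The calls in DOX against V were 1 higher and 25 lower (median -0.67). The summed CPM of the 33 was 55164, 49835 and 73263 CPM in DOXH hearts and 74930.0, 80032 and 75812 CPM in H hearts, so replicates 1 and 2 lay below all H hearts and replicate 3 just under the lowest. Actc1, cardiac alpha-actin, was at 3292, 2739 and 5057 CPM in DOXH hearts, against 6032, 7117 and 6056 in H hearts (log2 fold change -0.79 ± 0.18, adjusted p = 0.0624). Mybpc3, a myosin-binding protein, was at 1815, 1210.3 and 1978 CPM in DOXH hearts, against 2922, 2615 and 2266 in H hearts (log2 fold change -0.64 ± 0.18, adjusted p = 0.0896). Tnnc1, cardiac troponin C, was at 1296, 1049 and 1235 CPM in DOXH hearts, against 1763, 1478 and 1583 in H hearts (log2 fold change -0.43 ± 0.09, adjusted p = 0.0575). Actc1, Mybpc3 and Tnnc1 did not overlap between the groups. On the list 11 of 33 genes lay lower without overlap, against 10.8% of all genes. Myh6, the main myosin heavy chain of the mouse ventricle, was at 9041, 8886 and 20237 CPM in DOXH hearts, against 13799, 20987 and 16687 in H hearts, with replicate 3 inside the H range (without it: log2 fold change -0.94 ± 0.16, adjusted p = 0.00273). Hspb7, a small heat shock protein of heart muscle, was at 765, 671 and 1321 CPM in DOXH hearts, against 1981, 1514 and 1629 in H hearts (log2 fold change -0.89 ± 0.20, adjusted p = 0.0624).

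Calcium handling genes had 1 of 29 members higher and 12 lower at an unadjusted p under 0.05 (median log2 fold change -0.31, -0.42 without DOXH 3 to -0.17 without DOXH 2). DESeq2 called 1 higher and 6 lower, and edgeR without DOXH replicate 3 called 1 higher and 19 lower (median -0.42). Casq2, the calcium buffer of the sarcoplasmic reticulum, was at 482, 374 and 629.9 CPM in DOXH hearts, against 824, 758 and 799 in H hearts (log2 fold change -0.68 ± 0.15, adjusted p = 0.0596). Asph, whose locus also encodes junctin, was at 136, 109.9 and 197 CPM in DOXH hearts, against 245, 231 and 243 in H hearts (log2 fold change -0.70 ± 0.16, adjusted p = 0.0624). Ryr2, the calcium release channel, was at 861, 710.3 and 1529 CPM in DOXH hearts, against 1135, 1735 and 1455 in H hearts. In Ryr2 replicate 3 was inside the H range, and without it the gene passed (log2 fold change -0.88 ± 0.15, adjusted p = 0.00319). Ion channels had 3 of 25 members higher and 4 lower at an unadjusted p under 0.05 (median log2 fold change -0.29, -0.59 without DOXH 3 to -0.06 without DOXH 2). The fit without DOXH replicate 3 called 1 higher and 8 lower (median -0.59), and DESeq2 on all libraries called 1 higher and 1 lower. Kcnj8, a subunit of the ATP-sensitive potassium channel, was at 24.2, 17.4 and 26.9 CPM in DOXH hearts, against 31.02, 33.2 and 33.9 in H hearts (log2 fold change -0.52 ± 0.14, adjusted p = 0.0829). Kcnq1, a delayed rectifier channel, was at 15.1, 7.498 and 29.98 CPM in DOXH hearts, against 21.2, 36.2 and 28.2 in H hearts (without replicate 3: log2 fold change -1.32 ± 0.29, adjusted p = 0.0105). Cardiomyocyte markers had 0 of 15 members higher and 7 lower at an unadjusted p under 0.05 (median log2 fold change -0.35, -0.46 without DOXH 3 to -0.26 without DOXH 2). With DOXH replicate 3 left out 0 higher and 10 lower were called (median -0.46), against 0 higher and 6 lower by DESeq2 with it.

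Stress hormones and vasoactive genes were uneven within the groups. Nppb, the B-type natriuretic peptide, was at 10.04, 0.964 and 58.3 CPM in DOXH hearts, against 368, 161 and 143 in H hearts (log2 fold change -3.28 ± 0.88, adjusted p = 0.0843). The DOXH hearts differed widely but did not overlap the H hearts. It was at 0.729, 1.58 and 2.3 CPM in DOX hearts, against 97.6, 82.5 and 122 in V hearts. Without replicate 3 it passed (log2 fold change -5.31 ± 0.77, adjusted p = 0.0029). Ankrd1, a stretch-responsive nuclear protein, was at 641, 95.4 and 629 CPM in DOXH hearts, against 2543, 1030.3 and 1297 in H hearts (log2 fold change -1.83 ± 0.66, adjusted p = 0.137). Aplnr, the receptor of the peptide apelin, was at 4.21, 1.39 and 11.1 CPM in DOXH hearts, against 13.7, 28.9 and 23.9 in H hearts (log2 fold change -1.99 ± 0.48, adjusted p = 0.069). Apln, which encodes the peptide, was at 2.87, 1.5 and 8.61 CPM in DOXH hearts, against 9.33, 13.2 and 12.1 in H hearts. Without replicate 3 both passed lower, by log2 fold changes of -2.95 for Aplnr and -2.38 for Apln. Acta1, skeletal alpha-actin, was at 94.3, 61.8 and 56.96 CPM in DOXH hearts, against 885, 104 and 91.3 in H hearts. Myh7, the slow myosin, was at 769, 94.8 and 116 CPM in DOXH hearts, against 995, 162 and 138 in H hearts. In both, H replicate 1 was the highest library. Nppa, the A-type peptide, was at 80.7, 109 and 30.5 CPM in DOXH hearts, against 338, 84.98 and 31.7 in H hearts, which overlapped. The stress and vasoactive list had 3 of 23 members higher and 11 lower at an unadjusted p under 0.05 (median log2 fold change -0.40, -0.82 without H 3 to -0.19 without H 1). The adjusted calls were 2 higher and 7 lower without DOXH replicate 3 (median -0.37) and 1 higher and 7 lower in DESeq2.

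Iron genes held 2 of the larger contrasts outside the called set. Tfrc, the transferrin receptor that takes iron into the cell, was at 14.8, 13.1 and 46.1 CPM in DOXH hearts, against 95.4, 133 and 124 in H hearts (log2 fold change -2.25 ± 0.40, adjusted p = 0.0543). Slc40a1, which encodes the iron exporter ferroportin, was at 60.5, 110.3 and 33.2 CPM in DOXH hearts, against 11.4, 19.3 and 19.2 in H hearts (log2 fold change 2.03 ± 0.38, adjusted p = 0.0543). Neither gene overlapped, and replicate 3 was the DOXH heart nearest to H in both. On the iron list 3 of 24 genes lay higher and 3 lower without overlap, against 10.3% and 10.8% of all genes. Without replicate 3 Tfrc passed lower (log2 fold change -3.07 ± 0.24, adjusted p = 6.9e-05) and Slc40a1 higher (log2 fold change 2.36 ± 0.32, adjusted p = 0.00164). Ftl1, the light chain of ferritin, was at 254, 258 and 197 CPM in DOXH hearts, against 203, 162 and 163 in H hearts (log2 fold change 0.42 ± 0.12, adjusted p = 0.0852). The iron list had 6 of 24 members higher and 6 lower at an unadjusted p under 0.05 (median log2 fold change 0.00, -0.02 without H 2 to 0.02 without DOXH 1). Past the adjusted threshold were 6 higher and 5 lower without DOXH replicate 3 (median 0.01), and 3 higher and 1 lower in DESeq2. Of the CISD family, Cisd2 was at 59.9, 64.7 and 73.7 CPM in DOXH hearts, against 76.7, 72.8 and 78.6 in H hearts (log2 fold change -0.20 ± 0.09, adjusted p = 0.203). Cisd1, of the outer mitochondrial membrane, was at 103, 99.7 and 106 CPM in DOXH hearts, against 128, 109.9 and 119.5 in H hearts (log2 fold change -0.21 ± 0.07, adjusted p = 0.123). Cisd3, of the mitochondrial matrix, was at 26.8, 21.6 and 30.8 CPM in DOXH hearts, against 30.7, 34.3 and 32.7 in H hearts (log2 fold change -0.30 ± 0.13, adjusted p = 0.18). No CISD gene passed in edgeR or DESeq2 with all libraries. Voom with quality weights called Cisd2 lower (adjusted p = 0.0229), but it gave DOXH replicate 1, the lowest in Cisd2, by far the largest weight (2.82). In edgeR without replicate 3, Cisd2 (log2 fold change -0.29 ± 0.09, adjusted p = 0.0421) and Cisd3 (log2 fold change -0.43 ± 0.13, adjusted p = 0.0362) passed lower and Cisd1 did not (log2 fold change -0.23 ± 0.08, adjusted p = 0.0557).

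Glucose uptake and glycolysis genes had 0 of 25 members higher and 8 lower at an unadjusted p under 0.05 (median log2 fold change -0.15, -0.22 without DOXH 3 to -0.07 without H 2). Leaving out DOXH replicate 3 gave 0 higher and 9 lower past the threshold (median -0.22), and DESeq2 gave 0 higher and 3 lower. Slc2a4, which encodes the insulin-regulated transporter GLUT4, was at 120.0, 110.1 and 312 CPM in DOXH hearts, against 286, 352 and 324 in H hearts (log2 fold change -0.83 ± 0.31, adjusted p = 0.139). Replicate 3 sat inside the H range, and without it the gene passed (log2 fold change -1.48 ± 0.10, adjusted p = 1.21e-05). Pgam2, the muscle phosphoglycerate mutase, was at 207, 151 and 249.5 CPM in DOXH hearts, against 307, 303 and 285 in H hearts (log2 fold change -0.56 ± 0.14, adjusted p = 0.0704). The citric acid cycle had 1 of 26 members higher and 9 lower at an unadjusted p under 0.05 (median log2 fold change -0.06, -0.10 without H 1 to -0.04 without H 3). DESeq2 called 0 higher and 5 lower, and edgeR without DOXH replicate 3 called 0 higher and 10 lower (median -0.09). Fatty acid uptake and oxidation had 4 of 34 members higher and 4 lower at an unadjusted p under 0.05 (median log2 fold change 0.01, -0.07 without H 1 to 0.05 without H 3). The fit without DOXH replicate 3 called 0 higher and 7 lower (median -0.05), and DESeq2 on all libraries called 2 higher and 0 lower. Nuclear genes of oxidative phosphorylation had 2 of 79 members higher and 14 lower at an unadjusted p under 0.05 (median log2 fold change -0.06, -0.09 without H 2 to -0.02 without H 3). With DOXH replicate 3 left out 0 higher and 10 lower were called (median -0.06), against 0 higher and 4 lower by DESeq2 with it. Cox8a, a subunit of complex IV, was at 59.9, 57.7 and 65.1 CPM in DOXH hearts, against 93.4, 75.4 and 84.7 in H hearts (log2 fold change -0.47 ± 0.09, adjusted p = 0.0543), with a fold change nearly that of DOX against V (-0.47).

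Stress programmes other than that of p53 were mixed. The NRF2 and antioxidant list had 12 of 32 members higher and 2 lower at an unadjusted p under 0.05 (median log2 fold change 0.22, 0.09 without DOXH 2 to 0.35 without DOXH 3). The adjusted calls were 11 higher and 1 lower without DOXH replicate 3 (median 0.35) and 4 higher and 0 lower in DESeq2. Gclm, a subunit of the enzyme that makes glutathione, was at 36.5, 70.8 and 17.2 CPM in DOXH hearts, against 19.8, 18.6 and 18.5 in H hearts (log2 fold change 1.13 ± 0.38, adjusted p = 0.12). Hmox1, which breaks down haem, was at 7.84, 53.3 and 5.91 CPM in DOXH hearts, against 5.68, 4.66 and 3.21 in H hearts, with DOXH replicate 2 far above the other 5 libraries. Histone genes had 5 of 13 members higher and 0 lower at an unadjusted p under 0.05 (median log2 fold change 0.24, 0.13 without DOXH 2 to 0.33 without DOXH 3). Past the adjusted threshold were 5 higher and 0 lower without DOXH replicate 3 (median 0.33), and 4 higher and 0 lower in DESeq2. H1f2, a linker histone, was at 129, 194 and 49.7 CPM in DOXH hearts, against 44.8, 50.4 and 47.0 in H hearts (without replicate 3: log2 fold change 1.77 ± 0.15, adjusted p = 6.9e-05). Most replication-dependent histone messages lack a poly(A) tail, so poly(A) selection samples them poorly. Top1, a topoisomerase, was at 56.3, 61.9 and 53.6 CPM in DOXH hearts, against 44.6, 46.6 and 42.7 in H hearts (log2 fold change 0.36 ± 0.08, adjusted p = 0.0596). Top2b, the form of topoisomerase II of the adult heart and a target of the drug, was at 83.2, 88.7 and 79.9 CPM in DOXH hearts, against 67.4, 82.3 and 82.8 in H hearts (log2 fold change 0.12 ± 0.08, adjusted p = 0.417). Topoisomerases and DNA damage genes had 2 of 22 members higher and 0 lower at an unadjusted p under 0.05 (median log2 fold change 0.08, 0.03 without H 1 to 0.07 without H 3). Leaving out DOXH replicate 3 gave 2 higher and 0 lower past the threshold (median 0.05), and DESeq2 gave 1 higher and 0 lower. Unfolded protein and integrated stress genes, Ddit3 included, had 5 of 22 members higher and 1 lower at an unadjusted p under 0.05 (median log2 fold change 0.09, -0.05 without DOXH 3 to 0.18 without DOXH 2). DESeq2 called 2 higher and 1 lower, and edgeR without DOXH replicate 3 called 3 higher and 4 lower (median -0.05). Heat shock proteins had 0 of 21 members higher and 7 lower at an unadjusted p under 0.05 (median log2 fold change -0.05, -0.14 without H 3 to -0.01 without H 1). The fit without DOXH replicate 3 called 0 higher and 5 lower (median -0.11), and DESeq2 on all libraries called 0 higher and 1 lower. Atrophy ligases and autophagy genes had 7 of 31 members higher and 3 lower at an unadjusted p under 0.05 (median log2 fold change 0.10, 0.05 without DOXH 2 to 0.14 without DOXH 3). With DOXH replicate 3 left out 7 higher and 2 lower were called (median 0.14), against 2 higher and 1 lower by DESeq2 with it.

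The remaining lists held no gene past the threshold in edgeR with all libraries, and their counts are at an unadjusted p under 0.05. Collagen and matrix genes had 4 of 32 higher and 2 lower (median -0.03, -0.14 without H 3 to 0.11 without H 1). Fibroblast markers had 1 of 15 higher and 2 lower (median -0.09, -0.19 without H 3 to 0.05 without H 1). Mural cell markers had 0 of 14 higher and 3 lower (median -0.20, -0.34 without DOXH 3 to -0.09 without DOXH 2). Cytosolic ribosomal protein genes had 2 of 77 higher and 2 lower (median -0.02, -0.09 without H 2 to 0.07 without H 1). MHC class I genes had 1 of 17 higher and 2 lower (median 0.04, -0.18 without DOXH 1 to 0.18 without H 1). Adipocyte markers had 0 of 7 higher and 0 lower (median 0.10, 0.02 without DOXH 2 to 0.24 without DOXH 1). Erythroid markers had 0 of 6 higher and 3 lower (median -0.43, -0.54 without DOXH 1 to -0.39 without DOXH 2). Targets of the aryl hydrocarbon receptor had 1 of 4 higher and 1 lower (median 0.03, -0.26 without DOXH 2 to 0.33 without H 1). Skeletal muscle markers (3 of 15 tested, 0 higher and 1 lower), lymphocyte markers (2 of 20 tested, none in either direction) and nervous markers (2 of 11 tested, none) were too few to describe. Their untested members were not analysed here. DESeq2 called 0 higher and 2 lower in collagen and matrix genes, 0 higher and 1 lower in fibroblast markers, 0 higher and 1 lower in mural cell markers, and 1 higher and 1 lower in MHC class I genes, and none in the other lists of this paragraph. EdgeR without DOXH replicate 3 called 2 higher and 5 lower in collagen and matrix genes, 0 higher and 2 lower in fibroblast markers, 0 higher and 2 lower in mural cell markers, 2 higher and 0 lower in cytosolic ribosomal protein genes, 2 higher and 1 lower in MHC class I genes, and 1 higher and 0 lower in adipocyte markers, and none in the other lists of this paragraph. Of all 38 lists, 5 held a gene past the threshold in edgeR with all libraries, 30 in DESeq2 and 32 in edgeR without DOXH replicate 3. Over all genes the median log2 fold change was 0.00, so a list median can be read against that.

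**Figure D4:**
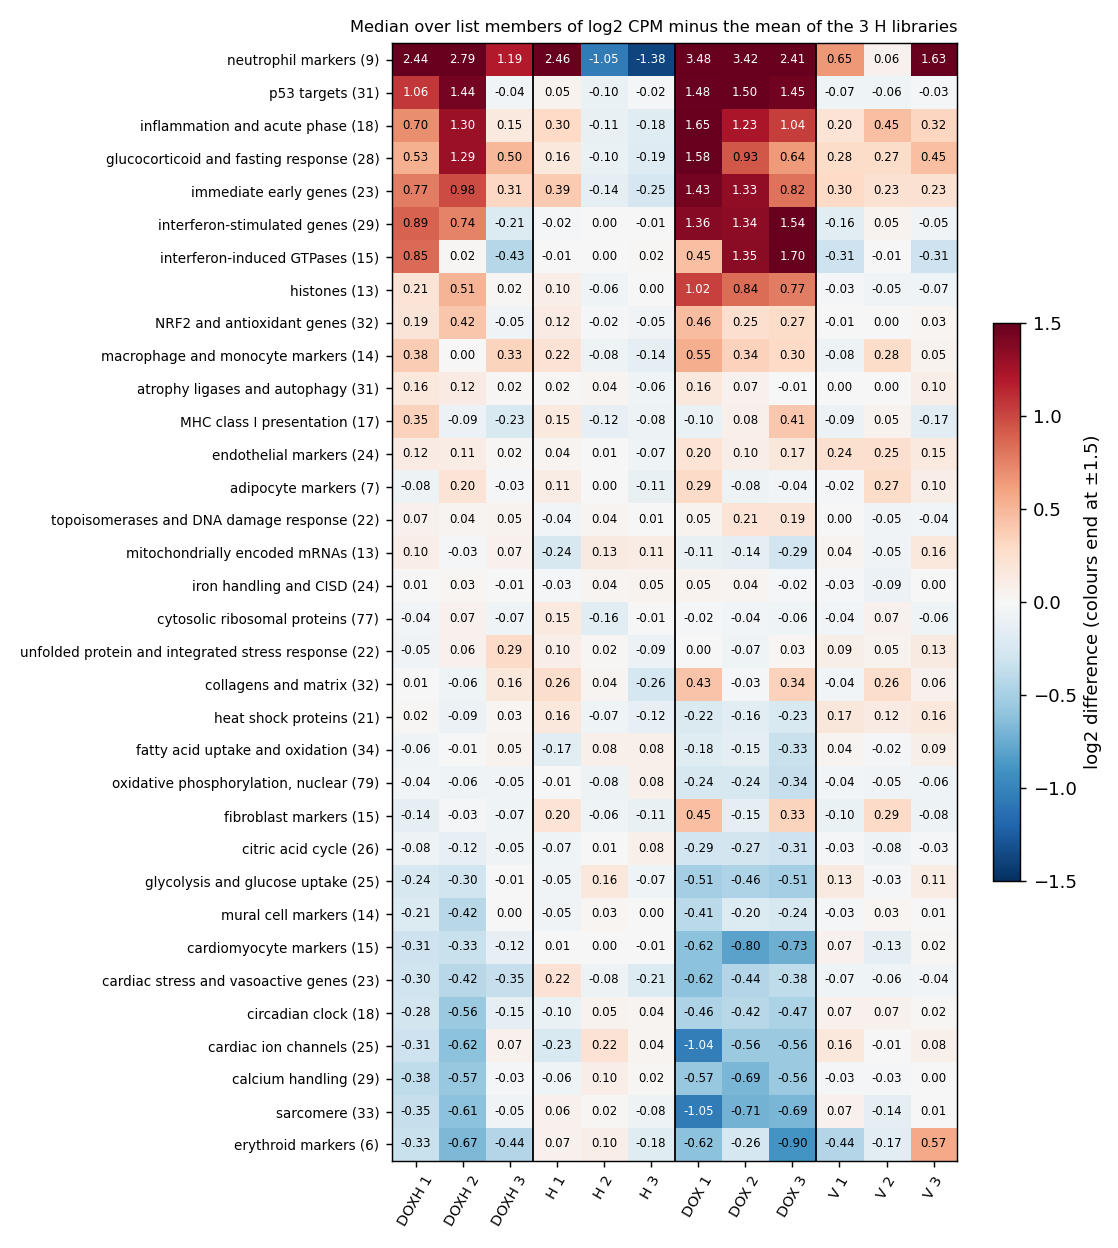
Each cell is the median, over the members of a list (number tested in brackets), of log2 CPM minus the mean of the 3 H libraries, for the 12 libraries in columns. DOXH 1 and DOXH 2 resemble the DOX columns in sign for p53 targets and the sarcomere, DOXH 3 is near 0 for both (-0.04 and -0.05), and H 1 matches DOXH 1 in neutrophil markers (2.46 and 2.44).

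Spread within the DOXH group was the widest of the 4 groups. The median over genes of the SD of log2 CPM was 0.196 in DOXH, against 0.138 in H, 0.126 in DOX and 0.102 in V, and 132 genes had an SD above 1 in DOXH, against 57 in H, 32 in DOX and 14 in V. Beside Nppb, Eda2r, Klhdc7a, Dbp and Hmox1, the genes with the largest SD in DOXH were Alb, Serpina3n and Mt2. Alb, the liver's albumin, was at 1.34, 46.7 and 6.22 CPM in DOXH hearts, against 63.03, 71.0 and 21.9 in H hearts, so the groups overlapped. Serpina3n, an acute-phase protease inhibitor, was at 11.3, 77.3 and 7.68 CPM in DOXH hearts, against 7.45, 6.05 and 5.94 in H hearts. Mt2, a metallothionein, was at 14.3, 123 and 17.4 CPM in DOXH hearts, against 34.5, 7.51 and 8.19 in H hearts. In Serpina3n, Mt2 and Hmox1 DOXH replicate 2 was the single high DOXH library, whereas in Eda2r and Klhdc7a replicate 3 was the single low one. Tuba4a, an alpha-tubulin, was at 80.3, 37.2 and 308 CPM in DOXH hearts, against 318, 430.1 and 398 in H hearts. Replicates 1 and 2 were low and replicate 3 was near H (without replicate 3: log2 fold change -2.70 ± 0.33, adjusted p = 0.00111).

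The same drug was compared without hesperitin in DOX against V, which shares no library with DOXH against H. There 3352 genes passed (32.3%), 1624 higher (15.6%) and 1728 lower (16.6%). Of the 16 genes called in DOXH against H, 10 also passed in DOX against V, 9 in the same direction and mt-Nd3 in the opposite one. The other 6 (Cd200, Shank3, mt-Rnr2, Mbd1, Rgs2 and Rasl11b) did not pass there. Of the 3352 genes, 3107 (92.7%) had the same sign in DOXH against H, and the slope of the DOXH against H change on the DOX against V change was 0.48, or 0.69 without DOXH replicate 3. Across all 10393 genes, which are not independent replicates, r was 0.72, or 0.80 without replicate 3. Of the 2298 genes called without that library, 1635 were also called in DOX against V, which is 71.1% of the first set and 48.8% of the second.

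**Figure D5:**
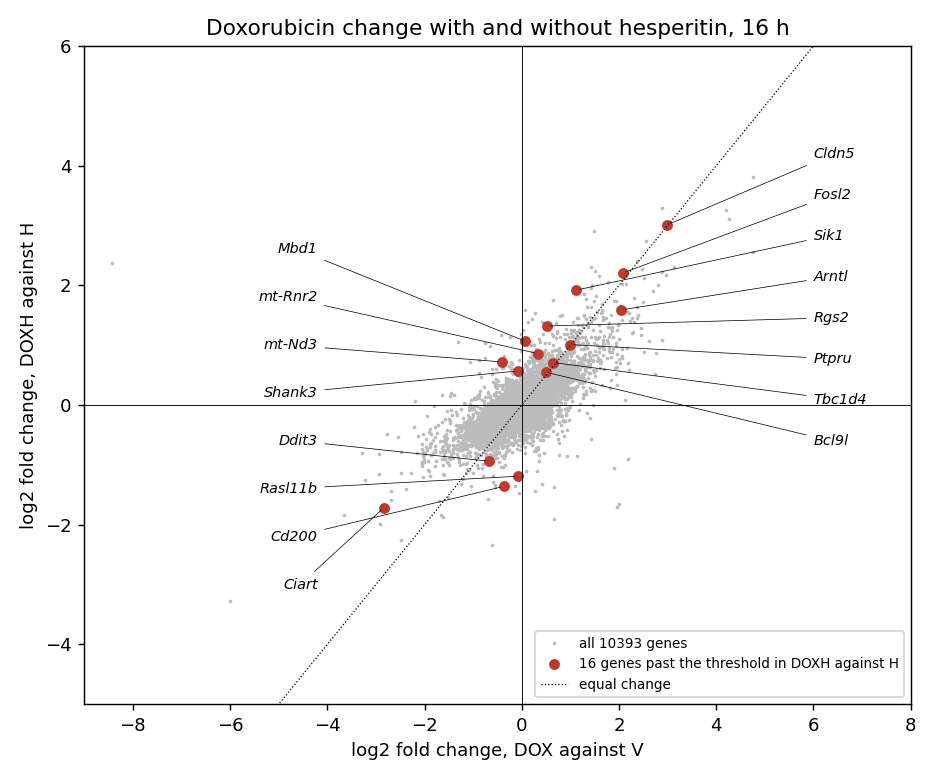
Each point is a gene, at its log2 fold change in DOX against V (horizontal) and in DOXH against H (vertical), with the 16 genes past the threshold in DOXH against H named and a dotted line of equal change. Most points run along a line flatter than the dotted one (slope 0.48 over the 3352 genes called in DOX against V), and Cldn5, Ptpru and Fosl2 lie close to the dotted line.

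Whether the change differed with and without hesperitin was tested as an interaction, (DOXH minus H) minus (DOX minus V). No gene passed in edgeR (0 of 10393, lowest adjusted p = 0.172), while 1228 had an unadjusted p under 0.05 (11.8%), 712 higher (6.85%) and 516 lower (4.96%). Limma voom also called none. DESeq2 called 42, all higher (3.74%), of the 1124 genes to which it gave an adjusted p. Leaving out DOXH replicate 2 gave 254 calls and leaving out DOXH replicate 3 gave none, so the outcome turns on which DOXH heart is kept. The lowest p belonged to mt-Nd3 (log2 fold change 1.12 ± 0.16, adjusted p = 0.172) and Shank3 (log2 fold change 0.64 ± 0.10, adjusted p = 0.172). Next were Zfhx2, a zinc finger homeobox gene, and Mpst, mercaptopyruvate sulfurtransferase. Zfhx2 was at 8.13, 7.39 and 8.92 CPM in DOXH hearts, against 8.003, 7.57 and 7.12 in H hearts, beside 6.11, 6.49 and 6.24 CPM in DOX hearts, against 14.2, 11.97 and 11.2 in V hearts (log2 fold change 1.09 ± 0.18, adjusted p = 0.194). Mpst was at 16.6, 15.9 and 18.1 CPM in DOXH hearts, against 16.4, 17.1 and 17.5 in H hearts, beside 13.8, 12.1 and 11.8 CPM in DOX hearts, against 20.3, 21.1 and 21.9 in V hearts (log2 fold change 0.74 ± 0.13, adjusted p = 0.233). In the other direction the lowest p were those of Kctd12b, Zfp462, Sephs2 and Aftph, each with an adjusted p of 0.233. Aftph, an accessory protein of clathrin traffic, was at 25.1, 25.1 and 24.5 CPM in DOXH hearts, against 23.8, 24.2 and 23.3 in H hearts, beside 32.4, 30.2 and 31.96 CPM in DOX hearts, against 21.6, 20.8 and 18.3 in V hearts. Its 3 DOXH values lay close together, replicate 3 included, and below all DOX values. The gene was picked by its low interaction p, which itself favours such values, so no conclusion is drawn from them.

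By list, the interaction is given as counts at an unadjusted p under 0.05, since no gene passed the adjusted threshold. Without DOXH replicate 3 such counts were 484 higher (4.66%) and 401 lower (3.86%) over all genes. Interferon-stimulated genes had 0 of 29 higher and 18 lower with all libraries (median -0.73), and 0 higher and 18 lower without DOXH replicate 3 (median -0.54). Interferon-induced GTPases had 0 of 15 higher and 7 lower with all libraries (median -0.99), and 0 higher and 7 lower without DOXH replicate 3 (median -0.88). For p53 targets the counts were 0 of 31 higher and 4 lower with all libraries (median -0.53), and 0 higher and 4 lower without DOXH replicate 3 (median -0.21). Nuclear genes of oxidative phosphorylation had 25 of 79 higher and 0 lower with all libraries (median 0.18), and 23 higher and 0 lower without DOXH replicate 3 (median 0.16), and the sarcomere list 13 of 33 higher and 0 lower with all libraries (median 0.35), and 7 higher and 0 lower without DOXH replicate 3 (median 0.29). Glycolysis genes had 13 of 25 higher and 0 lower with all libraries (median 0.32), and 9 higher and 0 lower without DOXH replicate 3 (median 0.25). For mitochondrial messages the counts were 5 of 13 higher and 0 lower with all libraries (median 0.33). Without DOXH replicate 3 they were 4 higher and 0 lower (median 0.26). The interferon, p53 and oxidative phosphorylation counts hardly moved when replicate 3 was left out, unlike those of the sarcomere. The medians of interferon-stimulated genes and p53 targets did shrink, so an unmoved count does not show that replicate 3 has no part. List counts without DOXH replicate 2, whose removal gave 254 interaction calls, are not given. In Ifit3 the DOXH replicates 1 and 2, at 17.2 and 18.4 CPM, were below all DOX hearts (27.6, 27.5 and 37.1 CPM), with V hearts at 4.72, 8.61 and 7.22 CPM. Its interaction did not pass (log2 fold change -1.20 ± 0.50, adjusted p = 0.404). Members of a list share regulators and are not independent readings, so these counts are a description of the 12 libraries.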

How the data were processed

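Poly(A)-selected RNA of mouse hearts (RNA integrity number above 8) was sequenced as single-end Illumina reads, per the labels' protocols. The authors deposited expected counts per gene, which need not be whole; RSEM, DESeq2 and the genome GRCm38 (mm10) are named per the submitters' processing notes. For versions, annotation, strand setting and the filter behind the deposited table, nothing is given in the sources used here. Expected counts (9255651 to 19869050 per library) were rounded and scaled by TMM. filterByExpr removed no gene of 10393. Group means of the 12 libraries at 16 h (8 residual degrees of freedom) were fitted by edgeR 4.0.16 in R 4.3.3 with a robust quasi-likelihood test and Benjamini-Hochberg adjustment over all genes, threshold 0.05. CPM are TMM-scaled, log2 CPM used a prior count of 2, and the SE is the absolute log2 fold change over the square root of F. Groups and samples follow the labels. The 12 sample columns of the 72 h table were not used here.

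Members and the 38 lists were chosen with earlier results of these data known. Named genes were the largest, most separated and lowest-p genes past the threshold, up to 4 of each list with the lowest p, the CISD genes, the 8 with the largest SD in DOXH (mean log2 CPM 3 or more), and the 4 in each direction with the lowest interaction p, with unnamed models left out; fewer are described than the rule gives. Apln, Ankrd1, Bax, Fkbp5, Fos, Ifit3, Kcnq1, Mdm2, mt-Rnr1, Myh6, Myh7, Nppa, Per3, Podxl, Ryr2, S100a8, Slc2a4, Top2b, Tsc22d3 and Tuba4a were added after their values were seen. The comparison was repeated with DESeq2 1.42.0, with voom of limma 3.58.1, with glmTreat at 1.5-fold, with upper quartile or RLE factors, unfiltered, above 5 CPM, with a replicate block, on thinned counts, on the 6 libraries alone and without each library. Voom with sample quality weights, and DOX or V libraries left out for DOXH against H, were added after the data were seen. Simulated counts with known changes were used to check the test. No 2 libraries of the same group agreed within sampling noise, and pairs from different groups were not checked. Of 10393 identifiers, 10385 matched the GRCm38 annotation, and the 6 symbols shared by several identifiers are not described. Promoters are those of RefSeq on GRCm38.p6.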

Additional observations from a re-analysis of the deposited data

How the results depend on the processing

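The count of genes past the threshold in DOXH against H, 16, was 18 with RLE factors, 20 at a mean of at least 5 CPM, 16 without a filter and 15 thinned, and it moved to 55 with upper quartile factors, 32 with limma voom, 718 with DESeq2, 2157 with voom quality weights, 7 with the replicate block, 0 under glmTreat and 0 with only the 6 libraries (1474 there at an unadjusted p under 0.05). Leaving out 1 library gave 0 to 2298 (2298 without DOXH replicate 3, 192 without H replicate 1, 6 and 3 without DOXH replicates 1 and 2, 1 and 0 without H replicates 2 and 3, 4 without any 1 DOX library, and 0, 3 and 3 without V replicates 1, 2 and 3). All 16 genes were among the calls of DESeq2, voom with and without weights, RLE and upper quartile factors, the 5 CPM filter and the fits without DOXH replicate 3 or H replicate 1. The labels do not state that replicate numbers pair the libraries. Deviations from the group means correlated at -0.415 to 0.25 between same-numbered libraries and at -0.427 to 0.526 between others. With so few libraries per group, these ranges cannot decide whether the numbers pair them. With the block 7 of the 16 remained.

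The interaction count of 0 became 42 with DESeq2, 236 with quality weights and 0 to 254 with 1 library left out (254 without DOXH replicate 2, 29 without H replicate 1, 1 without H replicate 2). No named gene reversed its direction while called. Depth of 9255651 to 10502391 counts in DOXH and 3 libraries per group, of which 1 lay apart, limit the precision, and the cause of that library's place was not tested.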
